A study of Taeniopygia guttata with 134 samples.

Results

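A group of 83 genes, of 18618 in the table, had lower read counts in the nucleus taeniae (TN) than in both the hypothalamus (HY) and the NST, the bed nucleus of the stria terminalis, of male zebra finches (Taeniopygia guttata). The members were chosen by measured values on a log2 scale of CPM (the reads of a gene scaled by all reads counted in its library, with 0.5 added to each count). The mean over control-injected males had to be at least 1 lower in TN than in HY and than in NST, which is a level 2-fold or more lower. The means in HY and NST had to be at least 1 each and to differ by less than 0.58. The difference between lipopolysaccharide and control injection, averaged over the 4 social settings, had to be under 0.4 in size in every region. The regional difference among control males and the averaged injection difference are therefore descriptions of how these genes were picked. Counts of members past a threshold for the averaged injection difference are printed further on only beside those of all genes, and nothing is read from them.

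The nucleus taeniae is a nucleus of the avian forebrain that is compared with part of the medial amygdala of mammals and is known for its part in social and sexual behaviour. The bed nucleus of the stria terminalis belongs to the same extended amygdala system, and the hypothalamus controls hormone release, body temperature and feeding. The 3 regions are linked to each other and hold neurons with receptors for sex steroids. Lipopolysaccharide (LPS) is a part of the cell wall of Gram-negative bacteria that sets off an immune response, with fever and less social activity.

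The RNA came from 46 males that had received LPS (L) or a control injection (coded S in the labels). Each male was then isolated (ISO), kept together with a known female throughout (KFC), brought back to a known female (KF) or paired with a female new to him (NF). TN gave 43 libraries (21 after LPS and 22 controls), HY gave 45 (22 and 23) and NST gave 46 (23 and 23). In TN the LPS and control groups held 6 and 6 males in ISO and in KF, 5 and 5 in KFC, and 4 and 5 in NF. In HY they held 6 and 6 in ISO and in KF, 5 and 5 in KFC, and 5 and 6 in NF, and in NST 5 and 5 in KFC and 6 in every other group. The numbers in the labels placed all 3 regions of 42 males in the data. The sources used here do not give the dose, the time after injection or the age of the males. All males had been injected, so the data hold no uninjected control.

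Total counts per library were 9049816 to 14096470 in TN, 7339294 to 13159755 in HY and 7902418 to 11879211 in NST. Of the 134 libraries, all but 3 correlated best with the median control profile of their own region. The exceptions were NST of males 3 (LPS, NF), 4 (control, NF) and 65 (LPS, KFC). These correlations used the 12790 genes with a mean log2 CPM of 0 or more in control males of every region. The 5 members with a mean below 0 in TN of control males are not among those genes. NST of males 4 and 65 came marginally nearer to the TN profile (r = 0.968 and 0.954) than to that of NST (r = 0.967 and 0.953). HY of male 44 (control, KF) was nearest to the HY profile, but with r = 0.888, against 0.951 or more in every other HY library. The files do not pair gene identifiers with names, so marker genes of the regions or of cell types could not be looked up, the region labels could not be checked against markers, and the members are given by identifier with no function. In pieces of tissue, fewer cells of a type and less RNA per cell cannot be told apart.

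The rule narrowed the table step by step. In control males 503 genes (2.70% of the table) were at least 1 lower in TN than in both other regions. Of these, 230 reached a level of 1 in HY and NST, 126 had HY and NST within 0.58 of each other, and 83 (0.446%) also kept within the limit on the injection difference. Among the 43 genes left out by that last limit, 4 were lower and 21 higher after LPS by at least 0.4 in TN, 3 lower and 5 higher in HY, and 23 lower and 2 higher in NST. The gap to the nearer of HY and NST was 1.002, 1.010 and 1.025 in the 3 members just inside the limit, and 0.986, 0.977 and 0.971 in the 3 genes just outside. The opposite rule, TN at least 1 above both regions, found 20 genes. Its level limit of 1 applied to TN and not to HY and NST, and the other limits were the same.

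Among control males the members had a median mean level of 2.40 log2 CPM in TN (range -0.15 to 7.73), against 3.84 in HY (1.0 to 9.54) and 3.75 in NST (1.05 to 9.15). These levels are not divided by gene length, so they give the depth behind each gene and do not order the genes. In TN 39 members lay below a level of 2, against 12 in HY and 12 in NST, and 5 members had a mean log2 CPM below 0 in TN. The gap between TN and the other regions was moderate for most members. The TN level minus the HY level had a median of -1.52 (-3.06 to -1.01), and the TN level minus the NST level had a median of -1.34 (-2.83 to -1.0). Measured to the nearer region, the level in TN was 2.34-fold lower at the median (2.0 to 6.48-fold). The gap reached 1.5 in 28 members, 2 in 7 and 2.5 in 4. HY was the higher of the other two regions for 45 members and NST for 38, within the limit that the rule set on their difference. The scaling moved these gaps as a whole: over the 12790 genes the TN minus HY difference had a median of -0.14 on CPM and 0.01 under TMM, which scales libraries by a trimmed mean of the log ratios between them. Under TMM the members had medians of -1.38 for TN minus HY and -1.26 for TN minus NST, 63 of 83 were still at least 1 below both regions, and the smallest gap was 0.87.

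**Figure D1:**
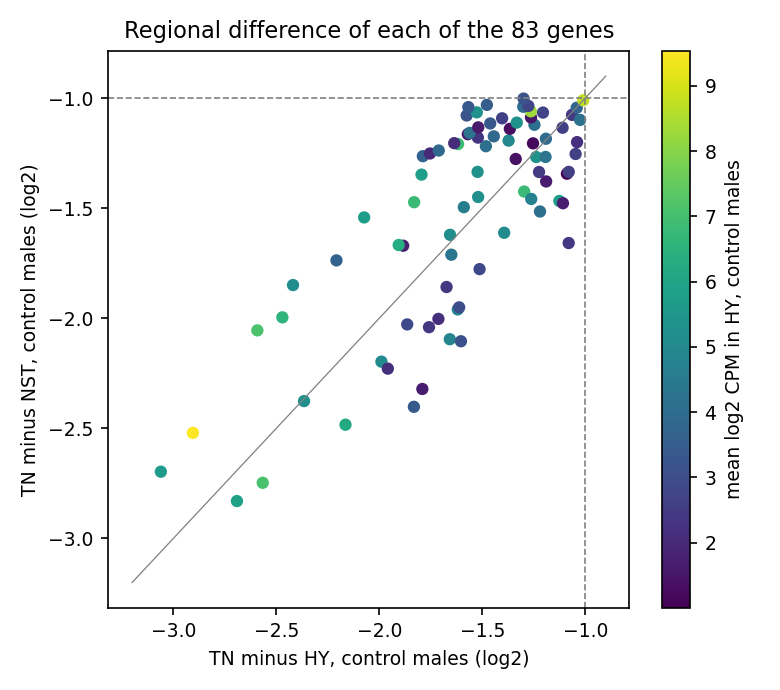
Log2 difference between TN and HY (x axis) and between TN and NST (y axis) in control males, 1 point for each of the 83 genes, with colour giving the mean log2 CPM in HY and dashed lines at the limit of -1. All points lie beyond both limits by the rule, with medians of -1.52 on the x axis and -1.34 on the y axis, and 7 genes had a gap of at least 2 to both regions.

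The member with the widest gap to the nearer region was ENSTGUG00000009882. In TN its lowest, median and highest values were 2.23, 6.07 and 21.9 CPM in LPS males and 2.17, 6.41 and 10.1 CPM in control males. In HY they were 37.6, 53 and 82.5 CPM in LPS males and 28, 53.2 and 68.9 CPM in control males. In NST they were 10.7, 36.1 and 93.9 CPM in LPS males and 18.2, 40.1 and 65.6 CPM in control males. All TN libraries therefore lay below all HY libraries, whereas TN and NST libraries overlapped in LPS males and were apart in control males. Its level in control males was 3.06 log2 units lower in TN than in HY and 2.70 lower than in NST.

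ENSTGUG00000003864 was next. In TN its lowest, median and highest values were 1.98, 7.25 and 40.9 CPM in LPS males and 2.79, 10.1 and 27.4 CPM in control males. HY gave 37.3, 51.9 and 75.3 CPM in LPS males and 29.7, 58.6 and 72.7 CPM in control males, and NST gave 17.6, 59.1 and 112 CPM in LPS males and 29.9, 65.9 and 93.3 CPM in control males. Control males did not overlap between TN and either other region, whereas the highest TN library of LPS males exceeded the lowest of HY and of NST. Its level in control males was 2.69 log2 units lower in TN than in HY and 2.83 lower than in NST.

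**Figure D2:**
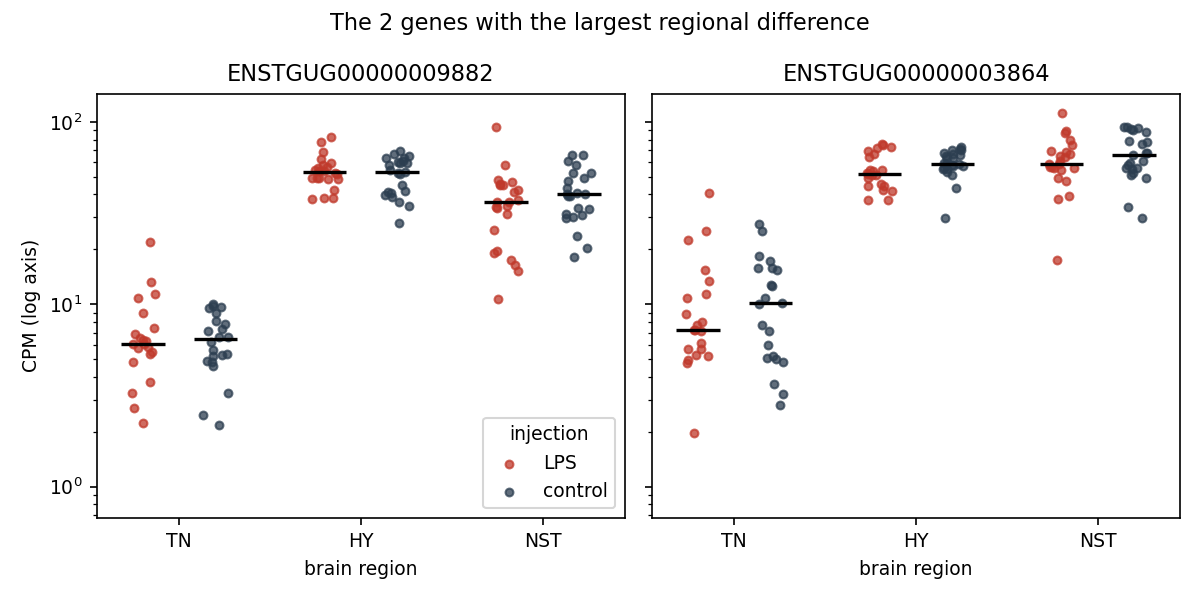
CPM (log axis) of the 2 genes with the widest gap in every library of TN, HY and NST, with LPS males left of control males in each region and a line at each median. TN medians were 6.07 to 10.1 CPM, and those of HY and NST were 36.1 to 65.9 CPM.

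The mean log2 CPM over the 83 members summarised each library. It averaged 2.45 ± 0.23 in TN of LPS males and 2.40 ± 0.25 in TN of control males (SD, n = 21 and 22). It averaged 3.97 ± 0.12 in HY of LPS males and 3.99 ± 0.15 in HY of control males (SD, n = 22 and 23), and 3.77 ± 0.29 in NST of LPS males and 3.92 ± 0.21 in NST of control males (SD, n = 23 each). The highest TN library stood at 2.96, and the lowest HY library stood at 3.50. The lowest NST library, from male 65, stood at 2.98 and so almost reached the TN range, and the next lowest, from male 4, stood at 3.33. In NST of male 65, 50 of the 83 members were below all 4 other libraries of its group, against 29.5% of all 12790 genes, and in NST of male 4, 44 members were below all 5 others, against 15.2%. For the 20 genes that were high in TN, the mean was 4.09 in NST of male 4, within the TN range of 3.80 to 4.83, and 3.0 in NST of male 65, outside it. Without these 2 libraries NST averaged 3.81 ± 0.23 after LPS (n = 22) and 3.95 ± 0.17 in control males (n = 22). The part of dissection or of sample identity in these libraries was not tested.

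**Figure D3:**
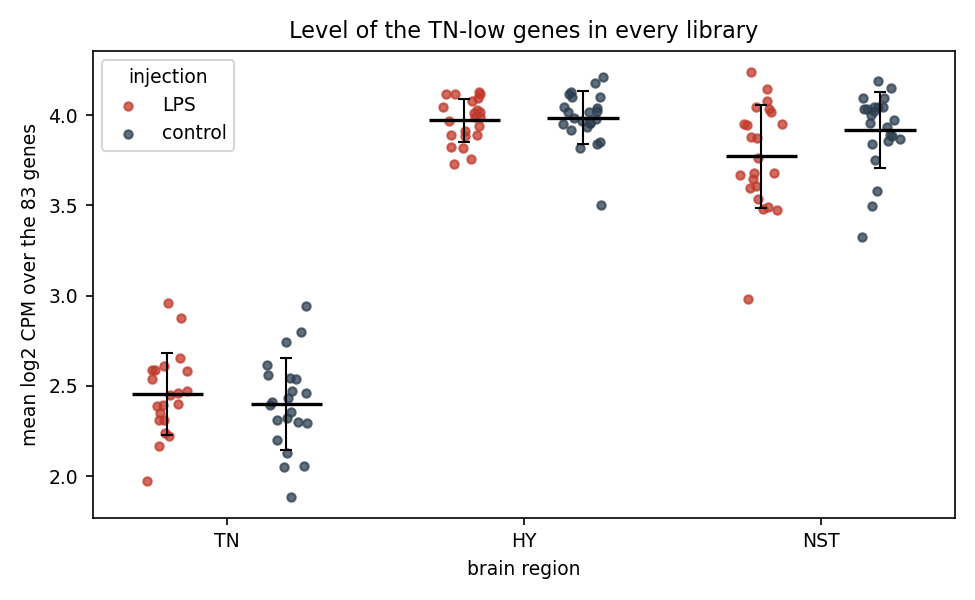
Mean log2 CPM over the 83 genes in each library of TN, HY and NST, with LPS males left of control males and bars for the mean and SD. All TN libraries lie at or below 2.96 and all HY libraries at or above 3.50, and the lowest NST library is at 2.98.

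The rule used the control means, and its limit on the injection difference binds the LPS males to the same order on average, so the values by setting are a description. The mean of TN was the lowest of the 3 regions for 83 members in LPS males of ISO and KF, 81 of NF and 80 of KFC, and for all 83 in control males of every setting. This order is common among genes at large, since TN was lowest in control males for 56.1% of the 12790 genes, and for 37.1% under TMM. TN at least 1 below both regions was rare, at 1.54% of these genes. Within a setting, TN was at least 1 below both regions for 48 members in ISO, 42 in KFC, 56 in KF and 52 in NF after LPS, and for 60, 50, 67 and 69 in control males of the same settings. The median TN minus HY difference ran over the settings from -1.54 to -1.40 in LPS males and from -1.64 to -1.43 in control males, and the TN minus NST difference from -1.41 to -1.07 and from -1.52 to -1.20.

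Single libraries overlapped for most members. Every TN library lay below every HY library for 18 members in LPS males, against 1.27% of the 12790 genes. In control males this held for 10 members, against 0.79%. Every TN library lay below every NST library for 6 members in LPS males, against 0.164%, and for 11 in control males, against 0.258%. The members had been picked on the control means, so these counts are a description, and they depend on the most extreme library of each region. Control HY includes male 44, where 31 of 83 members and 47.8% of the 12790 genes were below all 5 others of its group. The counts were not repeated without that library. In the 42 males with all 3 regions, TN was the lowest region for 58 to 83 members (median 78), with 58 to 82 (median 76) in the 20 LPS males and 66 to 83 (median 78.5) in the 22 control males. This was 69.9% to 100% of the members (median 94.0%), against 28.6% to 59% of the 12790 genes (median 43.1%). In all 42 males 19 members were lowest in TN (22.9%, against 0.407% of all genes), in at least 40 males 41 were (49.4%, against 1.37%), and 2 were so in under 30.

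Whether the members varied with the social setting was not used to choose them. All 83 passed the filter on low counts in every fit. Among control males, edgeR's quasi-likelihood test with Benjamini-Hochberg adjustment over all genes called 0 members in TN, 0 in HY and 0 in NST (0% of all genes tested in each), and DESeq2 called 0 members as well. At an unadjusted p under 0.05 there were 11 members in TN (13.3%, against 4.97% of all genes). There were 4 in HY (4.82%, against 5.74%) and 4 in NST (4.82%, against 4.51%). The smallest adjusted p among members was 0.873 in TN, 0.820 in HY and 1.0 in NST. Without TN of male 44, 9 members in TN passed the unadjusted p. The share of all genes in that fit is not given here, so nothing is read from the 9. Over all 83 members in TN, the fitted control level was highest in ISO for 25 (30.1%), in KFC for 29 (34.9%), in KF for 12 (14.5%) and in NF for 17 (20.5%). The shares of all genes tested were 25.9%, 23.9%, 24.4% and 25.7%.

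With both injections averaged, 0 members were called for setting in TN (against 0% of all genes), HY (0%) and NST (0.0417%), and DESeq2 called 0. The unadjusted p was under 0.05 for 12 members in TN (14.5%, against 8.96% of all genes). It was so for 1 in HY (1.20%, against 4.2%) and 9 in NST (10.8%, against 12%). Over all 83 members in TN, the level was highest in ISO for 33 (39.8%), in KFC for 21 (25.3%), in KF for 9 (10.8%) and in NF for 20 (24.1%). The shares of all genes tested were 31.1%, 20.9%, 21.1% and 26.8%. The members share these libraries, so the counts are not of independent genes. The mean over all members in TN of control males was 2.5 ± 0.32 in ISO, 2.48 ± 0.27 in KFC, 2.29 ± 0.21 in KF and 2.33 ± 0.17 in NF (SD, n = 6, 5, 6 and 5). In TN of LPS males it was 2.51 ± 0.27, 2.47 ± 0.09, 2.34 ± 0.23 and 2.51 ± 0.29 in the same settings (n = 6, 5, 6 and 4). KF had the lowest mean of the 4 settings in control males and in LPS males. In control males this rested on TN of male 44. Without that library KF averaged 2.37 ± 0.06 (SD, n = 5), and NF was lowest at 2.33. With both injections averaged, KF was the lowest setting for 37.3% of the members, against 23.6% of all genes tested. Among control males, KF and NF were each the lowest setting for 33.7% of the members, against 24.7% and 24.8% of all genes tested. The shares for the lowest and for the highest setting include TN of male 44 and were not repeated without it. Whether the mean over the members differed between settings was not tested.

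KFC against KF in NST over both injections, a comparison with calls in earlier results of these data, called 0 members with edgeR's quasi-likelihood test with Benjamini-Hochberg adjustment, against 0.473% of all genes, and DESeq2 called 0. The unadjusted p was under 0.05 for 4 members (4.82%, against 8.89% of all genes). The fitted KFC minus KF log2 difference of the members ran from -0.61 to 0.50, with a median SE of 0.22. A missed threshold does not show that the settings were alike.

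The size of the regional gap by setting was tested in control males with the male as a block. For TN minus HY, 0 members were called, against 0% of all genes. For TN minus NST 0 were called, against 0.0136%, with 0 by DESeq2 in both. The unadjusted p was under 0.05 for 7 members for TN minus HY (8.43%, against 3.8% of all genes). For TN minus NST it was so for 5 members (6.02%, against 2.38%). The smallest adjusted p among members was 0.935 for TN minus HY and 1.0 for TN minus NST. The range of the fitted difference over the 4 settings had a median of 0.67 for TN minus HY and 0.68 for TN minus NST in the members, against 0.35 and 0.29 over all genes tested. The members' wider ranges stand beside their larger spread between males, given further on.

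The rule limited the size of the averaged injection difference, and the control libraries on one side of that difference had also chosen the members by being high in HY and NST and low in TN. Neither its size nor its sign is therefore independent of the rule. LPS minus control, averaged over the settings, had a median of 0.05 in TN, with 35 of 83 members below 0, and of -0.03 in HY, with 45 below 0. In NST the median was -0.17, with 69 of 83 members (83.1%) below 0, against a median of -0.02 over the 12790 genes, of which 7184 were below 0. The median in NST was -0.16 in ISO, -0.26 in KFC, -0.21 in KF and -0.01 in NF. Without NST of male 65 it was -0.12 over the settings, with 66 members below 0, and -0.10 in KFC. Without NST of males 3, 4 and 65 it was -0.15, with 67 below 0. In NF the mean over all members in NST was 3.82 in LPS males and 3.86 in control males. Without NST of males 3 and 4 these means were 3.86 and 3.97. The members share these libraries and varied together in NST, so 69 of 83 is not a count of independent genes, and no test is given.

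**Figure D4:**
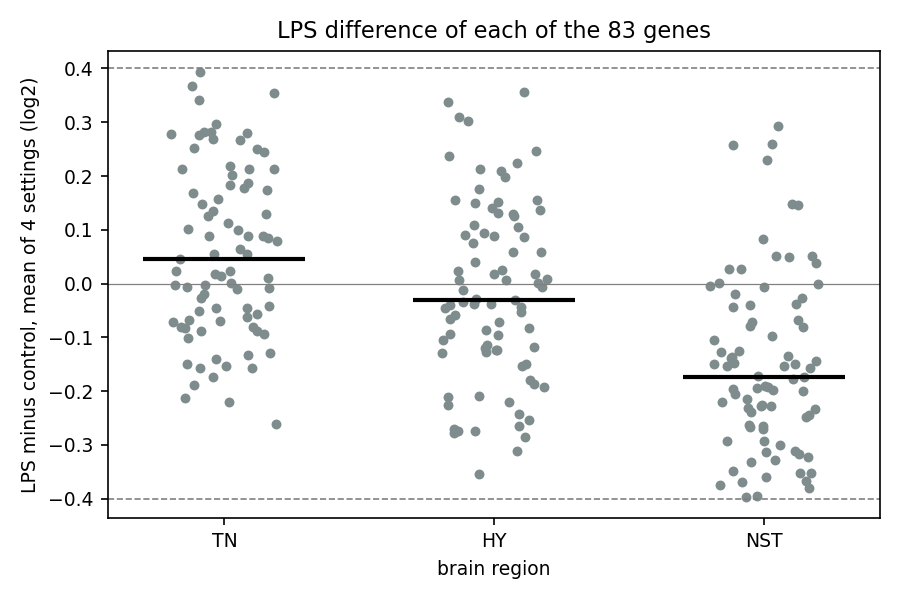
Difference between LPS and control males in log2 CPM, averaged over the 4 settings, for each of the 83 genes in TN, HY and NST, with a line at the median and dashed lines at the limits of the rule. The median is 0.05 in TN, -0.03 in HY and -0.17 in NST, where 69 genes lie below 0.

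The averaged LPS effect had an adjusted p under 0.05 for 0 members in TN, against 3.8% of all genes. In HY it did for 0, against 4.92%. In NST it did for 1, against 5.57%, and 1.88% for genes lower after LPS. The unadjusted p was under 0.05 for 1 member in TN (1.20%, against 14.8% of all genes). It was so for 9 in HY (10.8%, against 14.2%) and 16 in NST (19.3%, against 16.2%). Nothing is read from these counts, since members with a difference of 0.4 or more had been left out. DESeq2 called 0 members in TN (683 of 14598 genes), 1 in HY (854 of 14420) and 2 in NST (949 of 14386).

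Whether the response to LPS differed between settings was not used by the rule. The interaction of LPS with setting called 0 members in TN, HY and NST (0% of all genes in each), and DESeq2 called 0. The unadjusted p was under 0.05 for 3 members in TN (3.61%, against 4.73% of all genes). It was so for 5 in HY (6.02%, against 4.88%) and 2 in NST (2.41%, against 3.87%). The smallest adjusted p among members was 0.994 in TN, 0.868 in HY and 1.0 in NST. Over the 12 tests that the rule had not used, 67 of 996 pairs of member and test (6.73%) had an unadjusted p under 0.05. Over all genes the share was 5.74%. These tests share libraries and are not independent, and the pooled share covers tests on both sides. The members had 13.3% against 4.97% for setting in TN of control males. They had 1.20% against 4.2% for setting in HY with both injections averaged.

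The members were more variable between males than genes at large, and so were the 20 genes that were high in TN. The SD of log2 CPM within a group had a median over the members of 0.67 in TN, 0.50 in HY and 0.54 in NST, against 0.31, 0.32 and 0.29 over the 12790 genes. The members' levels were lower than those of genes at large, at medians of 2.39 in TN, 3.85 in HY and 3.65 in NST against 4.63, 4.76 and 4.69 over all genes, and low counts raise the SD. The part of level in the spread was not tested. The 20 genes that were high in TN had median SDs of 0.51 in TN, 0.56 in HY and 0.56 in NST. Without NST of males 3, 4 and 65, HY of male 44 and TN of male 44, the members' medians were 0.67 in TN, 0.46 in HY and 0.52 in NST, against 0.31, 0.27 and 0.28. The SD was larger in TN than in HY for 69 of 83 members, against 47.4% of all genes. Without these 5 libraries it was larger for 71 of 83, against 63.5%. The SD was larger in TN than in NST for 59 of 83 members, against 60.6% of all genes. Without these libraries it was so for 69 of 83, against 64.2%.

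The first principal component of the deviations from group means held 25.4% of the members' variance in TN, 23.0% in HY and 25.3% in NST, against 15.1%, 16% and 10.1% over all genes. Without the 5 libraries it held 23.7%, 25.1% and 20.8% in the members, against 15.2%, 10.3% and 9.57%. Over all libraries it held 32.8%, 20.6% and 28.7% in the 20 genes that were high in TN, a smaller set. The median correlation between members over libraries was 0.09 in TN, 0.04 in HY and 0.19 in NST, against 0.02, 0.03 and 0.04 between all genes, over 43, 45 and 46 libraries that share depth and dissection. Of 3403 pairs of members, 105 in TN (3.09%), 119 in HY (3.50%) and 204 in NST (5.99%) had r above 0.6, against 1.08%, 3.20% and 0.702% of pairs of all genes. In all 3 regions at once 12 pairs did (0.353%, against 0.150% of pairs of all genes), which involved 16 members. Among the 20 genes that were high in TN the median correlation was 0.15 in TN, 0.11 in HY and 0.21 in NST. The correlations and pair counts were not repeated without the 5 libraries, which include NST of males 4 and 65. Between regions of the same male, a member's deviations were weakly related. The median r was 0.15 for TN with HY (42 males), 0.22 for TN with NST (43 males) and 0.22 for NST with HY (45 males). Over all genes it was 0.29, 0.37 and 0.35, and over the 20 genes that were high in TN -0.04, 0.03 and 0.11. The part of the members' lower levels in these correlations was not tested. Males 19, 32 and 33, whose same-numbered libraries did not all deviate together, were included.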

How the data were processed

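Polyadenylated RNA from 3 brain regions was sequenced from NEBNext Ultra libraries, per the labels' protocols. The submitters' processing notes name HISAT2 and HTSeq 0.6.1. Not given in the sources used here are genome build, annotation and strand setting. The authors deposited raw read counts per gene for 18618 identifiers, of which 0 matched a symbol. All columns were matched to libraries by name (0 unmatched).

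The members and lists were chosen with earlier results of these data known. Levels used log2 CPM with 0.5 added to the count and 1 to the library total. Tests used edgeR 4.0.16 in R 4.3.3 (filterByExpr with minimum count 10 and minimum total 15, TMM scaling, robust quasi-likelihood fit to the 8 groups of each region), with 2-sided p-values adjusted by Benjamini-Hochberg over all genes and a threshold of 0.05. The code was tested on simulated data. Differences of the regional gap were fitted to control libraries with the male as a block, since the design says that regions came from the same males. Deviations of same-numbered libraries correlated above 0.1 for 40 of 42 males (TN with HY), 42 of 43 (TN with NST) and 42 of 45 (NST with HY), the exceptions being males 19, 32 and 33.

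Because identifiers had no symbols, the text names the 2 members with the largest gap to the nearer region and any member called in a test that the rule had not used, of which there were 0. Cell type marker lists could not be used. Alternatives were other scalings, no filter, DESeq2 1.42.0, no block, other limits of the rule, and leaving out libraries. No 2 libraries of a region agreed within counting error (lowest chi-square per gene 8.83). The biological coefficient of variation over all genes tested was 0.306 in TN, 0.277 in HY and 0.272 in NST. The parts of depth and of variation between males in the precision for the members were not tested. Figures used matplotlib 3.10.9 in Python 3.11.15.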

Additional observations from a re-analysis of the deposited data

Results flagged for a closer look

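In groups of 4 to 6 libraries, a library was singled out when its gap to the nearest of the others was large against the whole range of the group (Dixon's test at 95%), which chance does in about 1 in 20 groups. This happened in 3 of 72 tests, in which each of the 24 groups was used for the mean over the members and for the 2 named genes. These tests share libraries and are not independent. The mean log2 CPM over the 83 members was 1.89 in TN of control male 44 of KF, against 2.30 to 2.43 in the other libraries of its group. The log2 CPM of ENSTGUG00000009882 was 4.81 in HY of control male 12 of ISO, against 5.70 to 6.06 in the others. The log2 CPM of ENSTGUG00000003864 was 4.90 in HY of control male 44 of KF, against 5.68 to 6.04 in the others. Male 44 also gave the lowest HY value of the member mean (3.50), and 47.8% of all genes in that HY library were below all 5 others of its group.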

How the results depend on the processing

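Of 709 values for 24 results under the alternatives, 686 kept their direction and size or side of the threshold. Another 5, the LPS difference of 1 member in NST, each without 1 KFC library, kept their direction but lost the threshold. The rule had limited that difference, so nothing is read from these 5. Further, 18 counts moved by over 1.5 times or to or from 0, and 0 values changed sign. Many of the 686 could not change, since the library left out was not part of the value. For the median LPS difference in NST (-0.17), any shift below 0.26, the SD of the NST library means, counted as the same. The 686 are therefore not a measure of how firm the results are. The rule gave 39 genes with a gap of at least 2.38-fold, 154 with a gap of 0.8 on the log2 scale, 126 with no limit on the injection difference, and 76 to 88 leaving out 1 library at a time. Single libraries were left out only from groups of 5 or fewer males (KFC in all regions, and NF of HY after LPS and of TN), beside those named. TMM scaling gave 64 genes, of which 61 were among the 83. Medians over libraries gave 91 genes, of which 60 were among the 83. For the averaged LPS effect, members called in HY were 1 with DESeq2, against 854 of 14420 genes. Without HY of male 44 they were 1, against 875 of 14397 genes. Leaving out 1 HY library gave 0 to 2 members, against 658 to 737 of all genes. In NST they were 2 with DESeq2, against 949 of 14386 genes. Leaving out 1 NST library gave 0 to 2 members, against 711 to 858 of all genes. The rule had limited this effect, so nothing is read from these counts or from their changes. The cause of the changes was not tested. Among all genes, the 68 calls of KFC against KF in NST became 0 without control replicate 62 of KFC, and 133 with DESeq2. The 6 calls for setting in NST became 0 with DESeq2 size factors in edgeR, and 138 with DESeq2. In the paired fits with the male as a block, members called were 0 for both regional gaps, and with no replicate block they were also 0, with 4 and 5 members at an unadjusted p under 0.05. Shares of all genes at that p are not given here for the fit with no block, so the 4 and 5 are not compared. Alternatives without NST of male 65 or TN of male 44 were chosen after seeing the data. The 5 members with a mean log2 CPM below 0 in TN of control males had the lowest levels there and rest on low counts.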
